A study of Mus musculus with 2 samples.

Results

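The mir-26 family comprises 3 of the 1973 miRNA genes listed in the count tables, Mir26a-1, Mir26a-2 and Mir26b. They were taken by gene identifier and symbol, and all 3 had 10 or more reads in both libraries, the level called detected here, as did 411 genes in all. The tissue was midbrain dissected from B6NCrl mice (Mus musculus) at 16.5 days of embryonic life, and microRNA-seq read its short RNAs, with inserts below 30 nt, a class that holds the mature miRNAs. The study had 1 group of 2 libraries, biological replicates made from separate pools of healthy male and female embryos, with no treatment or altered allele named. The pool of replicate 2 held 37 embryos, and the labels give no number for replicate 1. A single group allows no contrast of conditions, so the questions were how high each mir-26 gene stood, what its reads can stand for, and how far the libraries differed.

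A miRNA gene is transcribed as part of a longer RNA, cut to a hairpin and then to a short duplex, of which one strand, named 5p or 3p after its arm, guides a silencing complex to target mRNAs. Pairing rests mainly on the seed, bases 2 to 8 of the mature strand. The mir-26 hairpins lie in introns of genes of the Ctdsp family, small phosphatases that act on the C-terminal domain of RNA polymerase II and join the repressor REST in silencing neuronal genes outside neurons. miR-26 is known to repress Ctdsp2 itself and Ezh2, the methyltransferase of Polycomb repressive complex 2.

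The mature strands are shown because they decide which reads can be assigned to 1 gene. They come from RefSeq (build GRCm38.p6, the assembly also called mm10), where all 3 genes matched by symbol, and are written 5′ to 3′ with the seed in capitals.
miR-26a-5p, of Mir26a-1 and Mir26a-2: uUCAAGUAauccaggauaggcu
miR-26b-5p, of Mir26b: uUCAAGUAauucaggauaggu
miR-26a-1-3p: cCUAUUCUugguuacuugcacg
miR-26a-2-3p: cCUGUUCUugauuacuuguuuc
miR-26b-3p: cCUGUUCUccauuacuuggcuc
The 5p strands of all 3 genes carry the seed UCAAGUA, which no other mature mouse strand in the RefSeq table had. Counted from the 5′ end, miR-26a-5p and miR-26b-5p differed by C11U and C21U over the 21 bases that both hold, so the first 20 bases differed at 1 position. The 3p strands were less alike. miR-26a-2-3p and miR-26b-3p shared the seed CUGUUCU, also carried by miR-6932-3p and miR-7039-3p, while miR-26a-1-3p had A4G inside the seed against either of them. miR-26a-1-3p and miR-26a-2-3p were identical at 16 of 22 positions.

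The hairpins show where a read can and cannot tell the copies apart. In Mir26a-1 and Mir26a-2 the capitals mark the longest run of bases that both share, and in Mir26b they mark miR-26b-5p.
Mir26a-1: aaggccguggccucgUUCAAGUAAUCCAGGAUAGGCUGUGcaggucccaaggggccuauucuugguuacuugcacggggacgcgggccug
Mir26a-2: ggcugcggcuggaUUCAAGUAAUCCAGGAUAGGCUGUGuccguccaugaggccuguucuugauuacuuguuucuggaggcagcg
Mir26b: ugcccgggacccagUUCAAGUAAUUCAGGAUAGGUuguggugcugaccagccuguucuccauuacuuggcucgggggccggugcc
The run shared by Mir26a-1 and Mir26a-2 was 25 bases long and held the whole 22-base miR-26a-5p, so a read of that strand matches both genes equally. Each hairpin's 3p strand was found in no other hairpin of the table. Mir26b shared a run of at most 11 bases with Mir26a-1 and 10 with Mir26a-2, and both of its mature strands were found in its own hairpin alone. Against hairpins outside the family, the longest shared run was 10 bases for Mir26a-1 and 11 bases for each of the other two. A search of 141767 GENCODE M21 transcripts for exact copies placed miR-26a-5p in Mir26a-1 and Mir26a-2 and each of the other 4 mature strands in 1 gene. The genome outside annotated transcripts was not searched.

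**Figure D1:**
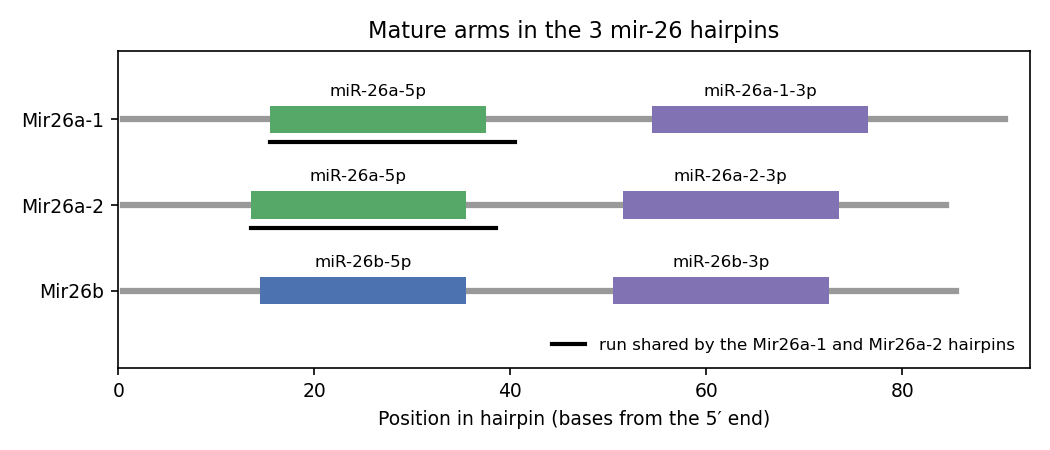
Position of the mature arms (boxes) in the 3 mir-26 hairpins, in bases from the 5′ end; green marks miR-26a-5p, blue miR-26b-5p and purple the 3p arms. The black line, the run of 25 bases shared by Mir26a-1 and Mir26a-2, covers all of miR-26a-5p and none of a 3p arm.

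All 3 hairpins lie on the plus strand, in sense to their hosts, in introns annotated by GENCODE M21 on mm10. Mir26a-1 (ENSMUSG00000065513.1, chromosome 9, 119031796 to 119031885) is in intron 5 of 7 of Ctdspl-201, 1543 bases after exon 5. Mir26a-2 (ENSMUSG00000065430.1, chromosome 10, 126995530 to 126995613) is in intron 5 of 7 of Ctdsp2-202, 241 bases before exon 6. Mir26b (ENSMUSG00000065468.1, chromosome 1, 74394310 to 74394394) is in intron 4 of 6 of Ctdsp1-201, with 234 bases to the exon before it and 245 to the exon after it. The hairpin was intronic in every annotated transcript that spans it, 3 of Ctdspl, 1 of Ctdsp2 and 2 of Ctdsp1. The hosts differed widely in size, with gene spans of 117546 bases for Ctdspl, 21259 for Ctdsp2 and 5777 for Ctdsp1. Host mRNA was not measured in these miRNA tables, so host and hairpin levels could not be compared.

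The tables held 6151299 sense reads over miRNA genes for replicate 1 and 5312642 for replicate 2, and levels are counts per 1000000 of these sums (CPM), so that 1 read is worth 0.163 and 0.188 CPM. Reads mapped to several places numbered 4816290 and 4391928 and are listed as a total only, not by gene. Intervals are 95% Wilson intervals and cover counting error only. Of 10 neural marker genes measured, 8 were detected, and the 10 summed to 50721 CPM in replicate 1 and 50767 CPM in replicate 2. Mir149 (25498 ± 892 CPM) and Mir137 made up most of that sum. Mir124a-1, Mir124a-2, Mir124a-3 and Mir9-2 stood at 5.04, 3.86, 0.54 and 1.34 CPM. These gene counts cannot be read as levels of miR-124 or miR-9. Reads of a strand that gene copies share can fall among those mapped to several places. Markers of other cells were also measured. The sum of 3 endothelial and mural markers, led by Mir126a, was 29337 and 30808 CPM, that of 3 blood markers 331 and 386 CPM, and that of 2 muscle markers 19.2 and 18.1 CPM. The liver marker Mir122 stood at 74.9 and 55.3 CPM. The sum of 5 epithelial markers of the mir-200 family was 663 CPM in replicate 1 and 116 CPM in replicate 2.

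Mir26b, the Ctdsp1 copy, was among the most abundant miRNA genes of the midbrain. It had 103464 reads in replicate 1 and 88045 in replicate 2. On the CPM scale these were levels of 16820 (interval 16718 to 16922) and 16573 (16465 to 16682), a mean of 16696 ± 175 CPM (SD, n = 2). It ranked 13th and 12th of all genes in the respective libraries and 13th by the mean. These ranks hold among reads assigned to 1 gene, and reads mapped to several places, 0.78 and 0.83 per assigned sense read, could place genes with shared strands higher. Its neighbours in that order were Mir17, of the proliferation-linked mir-17-92 cluster, at 17685 ± 2943 CPM, and Mir181c at 16141 ± 782 CPM. Mir26b lay below Mir17 in replicate 1 and above it in replicate 2, and its gap to Mir181c was smaller than the SD of Mir181c, so neither neighbour was separated from it beyond the spread between libraries.

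Mir26a-2, the Ctdsp2 copy, had 156 reads in replicate 1 and 135 in replicate 2. Its levels were 25.4 CPM in each library (intervals 21.7 to 29.7 and 21.5 to 30.1), and it ranked 276th by the mean. Mir26a-1, the Ctdspl copy, had 41 and 30 reads, or 6.67 CPM (4.91 to 9.04) and 5.65 CPM (3.96 to 8.06), with a mean of 6.16 ± 0.72 CPM (SD, n = 2) and rank 328. Both were low among detected genes, above 32.8% and 20.2% of the 411 by mean level. These counts cannot be read as the level of miR-26a. A miR-26a-5p read lies inside the shared run and aligns to both genes, and the layout of the tables is one in which only reads aligned to 1 place are counted. How many of the reads mapped to several places were miR-26a-5p was not tested, since the tables do not list them by gene. Reads at the 3p strand, or reads reaching past the shared run, can be told apart, and the gene counts do not separate the arms.

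**Figure D2:**
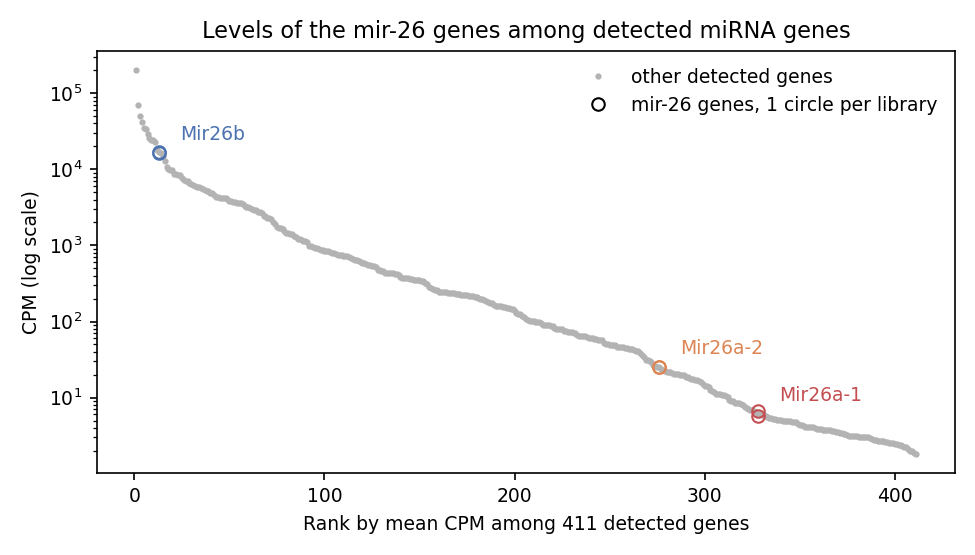
CPM (log scale) of 411 detected miRNA genes against their rank by mean CPM. Each mir-26 gene is drawn with 1 open circle per library: Mir26b is at rank 13, Mir26a-2 at rank 276 and Mir26a-1 at rank 328.

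The order of the counted levels was Mir26b, Mir26a-2 and Mir26a-1 in both libraries, and no value of one gene overlapped a value of another. Hairpins were 84 to 90 bases long, too alike for division by length to change this order, so such division is no check on it. The means were 196 CPM per base for Mir26b, 0.30 for Mir26a-2 and 0.068 for Mir26a-1. The smallest two-sided p that permuting 2 values against 2 allows is 0.333, and levels of different genes were therefore not tested. Mir26b had 525 times the summed reads of the Mir26a copies in replicate 1 and 534 times in replicate 2. That ratio sets a gene with no shared mature strand beside genes with a shared 5p strand, so it does not compare miR-26b with miR-26a.

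Between the Mir26a copies the comparison is more even, since both carry the same 5p strand. Mir26a-2 had 3.80 times the reads of Mir26a-1 in replicate 1 (exact binomial interval 2.68 to 5.51) and 4.50 times in replicate 2 (3.01 to 6.93). It held 79.2% of their summed reads in replicate 1 (73.0 to 84.3) and 81.8% in replicate 2 (75.2 to 87.0), and the intervals of the libraries overlap. The ratio describes the reads that could be placed and says nothing about which locus gave more miR-26a-5p.

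The family held 103661 reads in replicate 1 and 88210 in replicate 2. These were 1.69% of the sense reads assigned to miRNA genes in replicate 1 (interval 1.68 to 1.70) and 1.66% in replicate 2 (1.65 to 1.67), a mean of 1.67% ± 0.018 (SD, n = 2). With the reads mapped to several places added to the denominator the mean was 0.927%, and over all reads of the tables it was 0.747%. Any miR-26a-5p reads among those mapped to several places would enter these denominators but not the family's count. Neither value is therefore a corrected share of the family. Of the family's counted reads Mir26b made up 99.81% in both libraries, Mir26a-2 0.15% in both, and Mir26a-1 0.040% in replicate 1 and 0.034% in replicate 2. Reads of miR-26a-5p can be missing from these counts, so the shares are not the make-up of the mature miRNAs. Reads mapped to several places were 46.6 times the Mir26b reads in replicate 1 and 49.9 times in replicate 2. Opposite each of the 3 hairpins there were 0 reads in both libraries. Against the sense reads of Mir26b this allows an opposite-strand share of up to 0.0029% and 0.0034%, while for Mir26a-1 it allows up to 7.32% and 10%.

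Mir26b stood at nearly the same level in both libraries, whereas the few reads of the Mir26a copies left wide intervals. Replicate 2 over replicate 1, the log2 ratio of Mir26b was -0.02 (exact binomial interval -0.03 to -0.01), a level 1.47% lower in replicate 2. Its reads differed beyond counting error by a two-sided exact binomial test (Benjamini-Hochberg adjusted p = 0.00332). The direction rested on the scaling. With TMM factors the ratio was 0.03, higher in replicate 2 (exact binomial test, adjusted p = 1.54e-04), and with RLE size factors it was also 0.03 (adjusted p = 1.41e-04). A difference of this size is below what the choice of scaling moves. That test compares the 2 libraries and not conditions. In edgeR's exact test with a biological coefficient of variation (BCV, the relative spread allowed between pools) of 0.2, Mir26b had an adjusted p of 1.

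Mir26a-1 had a log2 ratio of -0.23 with an interval of -0.97 to 0.48 (exact binomial test, adjusted p = 0.714). Mir26a-2 had a ratio of 0.004 with an interval of -0.34 to 0.34 (exact binomial test, adjusted p = 1). With 30 to 156 reads a library, changes inside these intervals were not detectable at this depth. In all, 1 of the 3 mir-26 genes passed the test, against 195 of 411 detected genes (47.4%). Higher in replicate 1 were 120 genes (29.2%) and higher in replicate 2 were 75 (18.2%). With TMM factors that split was 95 and 90. At the BCV of 0.2, 6 genes (1.46%) passed, 5 of them the epithelial markers named above, and no mir-26 gene was among them. The epithelial sum was lower in replicate 2, and its part in the mir-26 ratios was not tested.

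The share of genes called differed with abundance. Of 18 genes at 10000 CPM or more, 17 passed the exact binomial test, and of 162 genes at 1 to 50 CPM, the range of the Mir26a copies, 23 did. The median size of the log2 ratio was 0.11 in the former and 0.26 in the latter. Among the 18 abundant genes, Mir100 alone had a smaller ratio than Mir26b. With TMM or RLE factors Mir30a and Mir99b did, and with all reads as library size Mir149, Mir100 and Mir99a did.

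**Figure D3:**
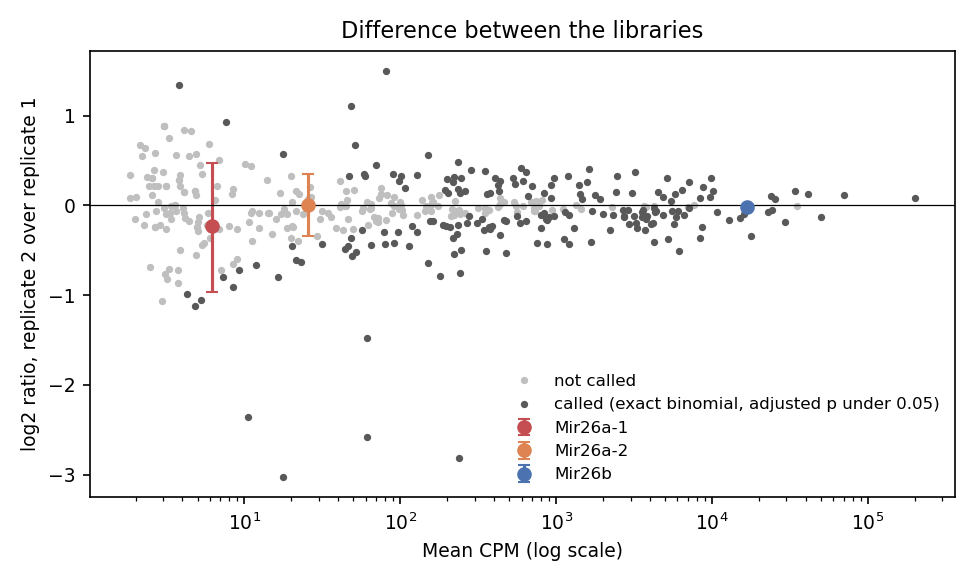
log2 ratio of replicate 2 over replicate 1 against mean CPM (log scale) for 411 detected genes, dark where the exact binomial test called a difference at an adjusted p under 0.05. The mir-26 genes are coloured with 95% exact binomial intervals, which narrow from Mir26a-1 (-0.97 to 0.48) to Mir26b (-0.03 to -0.01, hidden by its point).

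Likeness in level over the 2 libraries, measured as distance between log2(CPM + 1) values, named 3 genes for each member. Nearest to Mir26b were Mir181c (distance 0.089), Mir137, a neuronal miRNA, at 15108 ± 1072 CPM (0.22), and Mir17 (0.25). The exact binomial test called all 3 higher in replicate 1, and of the 4 genes Mir26b had the ratio smallest in size, against -0.10 for Mir181c, -0.14 for Mir137 and -0.34 for Mir17. Nearest to Mir26a-2 were Mir8112 (0.049), the erythroid Mir486 (0.11) and Mir218-1 (0.15), at 25.5, 26.6 and 23.8 CPM. Nearest to Mir26a-1 were Mir3106, Mir3962 and Mir3060, at 6.05, 5.72 and 5.83 CPM. A distance over 2 libraries of 1 group describes level only.

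Families with the same arrangement, copies in introns of paralogous host genes, put the mir-26 counts in context. The nearest parallel was the family of mir-103 and Mir107, hosted by Pank genes, which encode pantothenate kinases of coenzyme A synthesis. Its mature strands from RefSeq, with the seed in capitals, show a pair of copies that share a strand and another gene that does not.
miR-103-3p, of Mir103-1 and Mir103-2: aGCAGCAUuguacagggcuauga
miR-107-3p, of Mir107: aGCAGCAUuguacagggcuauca
They differ by G22C, so a read that ends before base 22 fits either strand. Mir107 shared a run of 24 bases with Mir103-2, where Mir26b shared at most 11 with a Mir26a copy. The parallel with Mir26b is therefore partial. Mir103-1 stood at 3.78 ± 0.51 CPM and Mir103-2 at 45.8 ± 1.28 CPM, while Mir107, with no shared mature strand, stood at 2408 ± 173 CPM (SD, n = 2). As in mir-26, the copies with a shared strand had the lower counts. In mir-218, in Slit genes of axon guidance, both copies share miR-218-5p, and Mir218-1 and Mir218-2 stood at 23.8 and 35.9 CPM.

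Counts varied among the other families, with and without a shared strand, and the part of sharing in these levels was not tested. The mir-128 copies share miR-128-3p, of 21 bases, in a common run of 23 bases. Mir128-1 stood at 2456 ± 387 CPM and Mir128-2, in Arpp21, at 1398 ± 155 CPM (SD, n = 2). In mir-208, the heart miRNAs in myosin genes, no mature strand is shared, and Mir208a and Mir208b stood at 1.48 and 15.9 CPM. The pair in Trpm genes likewise shares no mature strand, and Mir204 of the choroid plexus stood at 2230 ± 303 CPM and Mir211 at 16.9 ± 1.13 CPM. Of these 11 genes 10 were detected, 3 were higher in replicate 2 (Mir107, Mir128-1 and Mir128-2), 1 was higher in replicate 1 (Mir204) and 6 did not pass. That is 4 of 10, near the 47.4% of all detected genes that passed, and at the BCV of 0.2 edgeR's exact test called 0, with 0 at an unadjusted p under 0.05. Their median ratio was 0.10, against -0.06 over all detected genes.

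**Figure D4:**
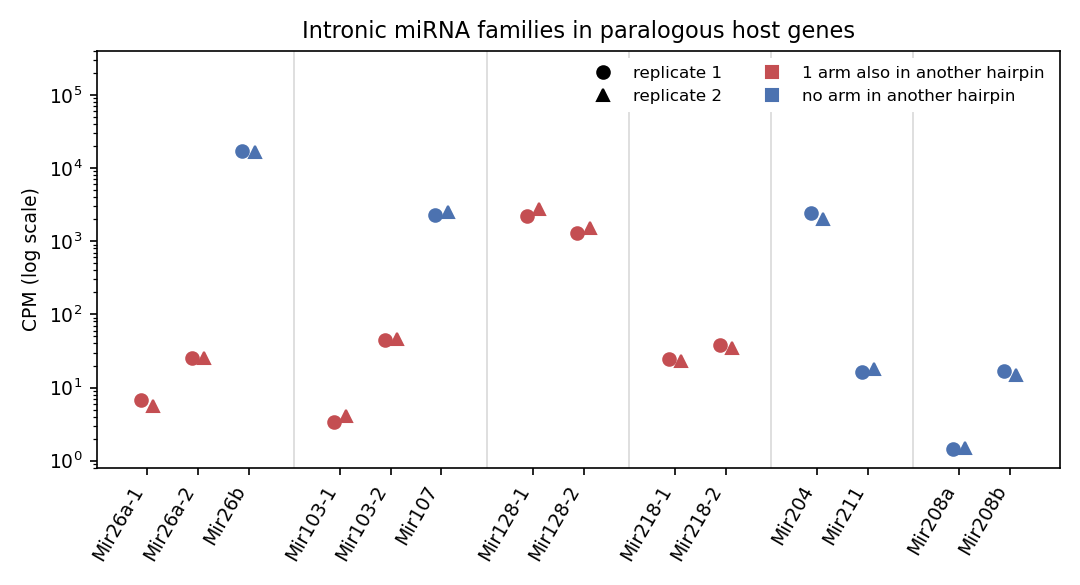
CPM (log scale) in replicate 1 (circles) and replicate 2 (triangles) of miRNA genes in introns of paralogous hosts, red where a mature arm is also in another hairpin and blue where none is. Mir26b (mean 16696 CPM) and Mir107 (mean 2408 CPM) stand above the red copies of their families, while the lowest value of the red mir-128 genes is 1289 CPM.

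Of the 1973 genes listed, 916 matched mature strands in RefSeq by symbol, and 582 of these had exactly 2. Genes without a match, some of them detected, were left out of the classes below. In 50 of them 1 strand was also present in another hairpin and the other was not, as in both Mir26a copies. Of these 50, 39 were detected, and Mir26a-2 ranked 27th and Mir26a-1 31st by mean CPM. The highest was Mir181a-1 at 5423 CPM, and 0 of the 50 reached 10000 CPM. Among the 513 genes with no shared strand 268 were detected and 15 reached 10000 CPM, with Mir26b 11th. Medians over detected genes were 75.0 CPM in the former class and 161 CPM in the latter, while over all genes of each class the order was the opposite, at 39.9 and 2.66 CPM. A further 19 genes had both strands in other hairpins, and 4 of them were detected, with a median of 344 CPM, above both other classes. These classes are a description, since genes were not assigned to them at random and strands were not counted apart. Mir125b-2 was classed with 1 shared strand but Mir125b-1 with none, so the class without sharing may hold genes that do share a strand.

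miRNAs of the REST and Ctdsp circuit were compared with the mir-26 genes because mir-124 is known to repress Ctdsp1 and mir-9 to repress Rest. The list also held Mir132, Mir212 and Mir29a, whose link to REST or the Ctdsp genes was not examined here. Of the 8 genes measured, 6 were detected. Of those, the exact binomial test called 4 higher in replicate 2 and 0 in the opposite direction, and 2 did not pass, beside 18.2% of all detected genes higher in replicate 2. Mir132, an activity-regulated miRNA, stood at 1060 and 1328 CPM (log2 ratio 0.32). Its cluster partner Mir212 stood at 53.0 and 66.3 CPM (0.32), Mir29a, which rises as neurons mature, at 197 and 245 CPM (0.32), and Mir9-3 at 363 and 447 CPM (0.30). That replicate 2 was the higher at all 4 genes follows from the call by which they were picked. The count of 4 was the same under TMM, RLE and all-read scaling, and at the BCV of 0.2 edgeR's exact test called 0 of the 6, with 0 at an unadjusted p under 0.05. Of the mir-124 and mir-9 genes measured, Mir9-3 alone was called. Mir124a-1 and Mir124a-2, at 5.04 and 3.86 CPM, did not pass, with ratios of -0.18 and 0.21. Their counts are not levels of miR-124, since reads of a strand that copies share can map to several places. Mir124a-3 (2 and 4 reads, ratio 1.06) and Mir9-2 (13 and 3 reads, ratio -1.74) had fewer than 10 reads in a library. Mir9-1 was not analysed here. The list's median ratio was 0.31, where Mir26b had -0.02 and the Mir26a copies -0.23 and 0.004.

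Other miRNAs known to repress Ezh2 were all detected. Mir101b stood at 2010 ± 90.2 CPM, Mir138-1 at 974 ± 145, Mir101a at 782 ± 4.38 and Mir138-2 at 616 ± 81.6 CPM (SD, n = 2). Mir26b stood above each of them in both libraries, and the Mir26a copies stood below each. That order is of gene counts and does not compare the mature miRNAs. The Mir26a copies and both mir-138 genes have 1 strand that is also in another hairpin, and the other genes have none. The exact binomial test called both mir-138 genes higher in replicate 2, with ratios of 0.31 and 0.27. Mir101b was higher in replicate 1 (-0.09), a call lost with TMM and RLE factors, and Mir101a (-0.01) did not pass. Over all detected genes 18.2% were higher in replicate 2 and 29.2% in replicate 1. At the BCV of 0.2 edgeR's exact test called 0 of the 4 genes, with 0 at an unadjusted p under 0.05. The list's median ratio was 0.13, beside -0.06 over all detected genes.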

How the data were processed

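Each library has its own deposited table of raw read counts by miRNA gene (mm10, GENCODE M4, as the deposited description states). Aligner, counting program and adapter trimming are not given in the sources used here. A table has columns for either strand, the sense strand and the opposite strand, and leading rows for reads in no gene, a layout that STAR writes for reads aligned to 1 place; no source states this. The rows that name no gene held 53.7% and 54.7% of reads and stayed out of library sizes. Names and positions came from GENCODE M21, on the same assembly (1894 of 1973 identifiers matched). Sense counts were divided by their sum over all genes to give CPM. Genes with 10 or more reads in both libraries entered a two-sided exact binomial test, adjusted by Benjamini-Hochberg over 411 genes at 0.05. The test was first tried on simulated counts that had no spread between pools. That trial cannot show how the test behaves where pools differ. Ratios have 0.5 reads added to each count. Nothing in the labels ties the pools to each other, and with 2 libraries an SD is itself uncertain. Alternatives were TMM and RLE factors and a BCV of 0.2 (edgeR 4.0.16, R 4.3.3), all reads as library size, the either-strand column, other read minimums and each library alone. Other steps used Python 3.11.15, scipy 1.17.1, pandas 2.3.3 and Biopython 1.88.

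The members, the gene lists and the rule for named genes were chosen with earlier results of these data known. The rule names the 3 mir-26 genes, the 3 genes nearest in level to each, and members of the lists. Genes named for arm classes, for rank neighbours or for smaller ratios than Mir26b were chosen after their values were seen.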

Additional observations from a re-analysis of the deposited data

How the results depend on the processing

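No paired analysis was possible because the study has 1 group. Of 72 recomputed values, 58 counted as unchanged. A ratio did so if it kept its direction and side of the threshold, and a level or share if it moved by less than the SD. A number of differing genes did so if it stayed within a set fold of the main number. Either of 2 libraries taken alone always lies within their SD of the mean, so those values were bound to count as unchanged and do not measure stability. The log2 ratio of Mir26b turned to 0.0270 with TMM and 0.0271 with RLE factors and was -0.0214 with an adjusted p of 1 in edgeR's exact test at a BCV of 0.2, and that of Mir26a-2 turned to -0.0265 with all reads as library size; these ratios lie near 0. With all reads of the table as library size, which counts more reads, levels were 7453 CPM for Mir26b, 11.3 for Mir26a-2 and 2.75 for Mir26a-1, and the family's share was 0.747%, or 0.927% with the reads mapped to several places added to the denominator. With the either-strand column Mir26b stood at 16275 and Mir26a-2 at 24.7 CPM. At the BCV of 0.2, 6 genes differed between the libraries, 5 higher in replicate 1 and 1 in replicate 2. Mir26a-1 fell out of the test at a minimum of 50 reads. Each library alone gave 16573 to 16820 CPM for Mir26b. The counts of the Mir26a copies limit their ratios, and what the reads mapped to several places hold limits any statement on miR-26a.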
